A study of Mus musculus with 12 samples.

Results

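Transcripts of the eosinophil lineage and of Il5 were followed in cultured mouse osteoclasts. The 9 genes were Il5, Il5ra, Siglecf, Ccr3, Epx, Prg2, Ear1, Ear2 and Ear6, chosen by symbol from the 47643 genes of the count table, of which 20203 had at least 1 count. Each symbol was found on a single row. Bulk RNA-seq. had been performed on 12 libraries in 3 groups of 4. Every culture started from monocytes (BMMs) taken from the bone marrow of WT mice of the BALB/c strain and received M-CSF and RANKL, the cytokines that drive osteoclast formation, and RNA was taken on day 3. OCsCtr cultures received no stimulus. OCsEo cultures received sorted eosinophils from IL-5tg/4get mice, which carry an IL-5 transgene and the 4get reporter of IL-4, at 1 BMM to 2 eosinophils, and OCsEoS cultures received eosinophil supernatant at a 1:2 dilution, both from day 0 for 48 h. The stimuli were then taken off with a wash and fresh medium was given, and whether eosinophils or their contents remained in the cultures was not tested. The eosinophils had been sorted from pooled blood and bone marrow of hyper-eosinophilic animals by CD45, CD125 (the protein of Il5ra) and Siglec-F (the protein of Siglecf), and the promoter that drives the Il5 transgene is not given in the sources used here. The comparisons ask how much of the eosinophil transcript set was present in osteoclast cultures that had met the cells or only their secreted products.

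Eosinophil precursors mature in response to IL-5, a type 2 cytokine that signals through a receptor made of the IL-5-specific alpha chain (Il5ra) and the common beta chain (Csf2rb). Mature mouse eosinophils carry Siglec-F and the eotaxin receptor CCR3 on their surface and store eosinophil peroxidase (Epx), major basic protein (Prg2) and eosinophil-associated ribonucleases (the Ear genes) in cytoplasmic granules. The granule genes are transcribed mainly during maturation in the bone marrow.

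The Ear genes resemble each other so closely that counts may be shared among them, which the start of their coding sequences shows. The first 150 coding bases are given 5′ to 3′ from the GENCODE vM21 transcripts of GRCm38, with capitals at the 19 positions where the 3 genes are not all alike. They lie on chromosome 14 at chr14:43819260-43819409 on the minus strand (Ear1), chr14:44102887-44103036 on the plus strand (Ear2) and chr14:51853998-51854147 on the plus strand (Ear6).
Ear1: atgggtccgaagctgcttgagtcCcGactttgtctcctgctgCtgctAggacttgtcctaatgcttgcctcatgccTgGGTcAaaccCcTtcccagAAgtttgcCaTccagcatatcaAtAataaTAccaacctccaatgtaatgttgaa
Ear2: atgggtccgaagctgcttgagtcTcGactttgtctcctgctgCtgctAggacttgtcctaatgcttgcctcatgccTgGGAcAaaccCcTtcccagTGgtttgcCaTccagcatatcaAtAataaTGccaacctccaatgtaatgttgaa
Ear6: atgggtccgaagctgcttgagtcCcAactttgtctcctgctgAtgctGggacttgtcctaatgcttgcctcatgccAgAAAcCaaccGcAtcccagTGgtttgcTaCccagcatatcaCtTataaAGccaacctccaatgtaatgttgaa
Over the whole coding sequence, Ear1 and Ear2 were identical at 95.7% of 465 aligned bases, with a longest identical run of 96 bases, whereas Ear6 was identical to Ear1 at 87.3% and to Ear2 at 88.2%. Of all stretches of 50 bases in the transcript, 57.4% in Ear1, 41.5% in Ear2 and 1.07% in Ear6 also occurred in another annotated gene, mainly another Ear gene or an Ear pseudogene. The counts of Ear1 and Ear2 are therefore given as uncertain between them, while those of Ear6 could be assigned by the reference sequence over nearly its whole length. Differences of the BALB/c strain from this reference were not examined. Il5 shares 417 of its 1537 exonic bases with Gm12214 on the opposite strand, and the strand setting of the counting is not given in the sources used here. Gm12214, Ear10 and the pseudogenes Ear-ps2, Ear-ps9, Ear-ps12 and Ang-ps2 had 0 counts in every library.

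Libraries held between 27837530 and 40327869 counts, and 3 counts, used as the detection floor, were worth 0.0744 to 0.108 counts per 1000000 (CPM). Counts this low varied more than counting alone gives: for genes with a mean of 2 to 20 counts, the median ratio of variance to mean within a group lay between 3.73 and 6.85, where pure counting gives 1. The number of genes with 1 to 3 counts was 1001 to 1513 in the OCsCtr libraries, 607 to 975 in the OCsEo libraries and 453 to 847 in the OCsEoS libraries, so that low counts were less often recorded in the stimulated groups over the genome as a whole. Intervals on ratios of counts below are exact 95% intervals that cover counting error only. Folds below that set 3 counts in place of 0 are descriptions and not lower bounds. The label of the cells was checked with 12 osteoclast markers, which were detected in every group and summed to 29518 to 35245 CPM in OCsCtr, 18682 to 23062 CPM in OCsEo and 15319.9 to 22482.5 CPM in OCsEoS, with 8 of the 12 called lower in each stimulated group, beside 2.61% and 4.11% of all genes tested, among them Itgb3, Calcr, Mmp9, Oscar, Atp6v0d2 and Acp5.

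The 13 markers listed for eosinophils, which hold all of the 9 genes but Il5, summed to 61.6 to 77.8 CPM in OCsCtr, 66.0 to 89.9 CPM in OCsEo and 54.5 to 61.8 CPM in OCsEoS, most of it from Ccr3. Of the 7 that were tested, Alox15 and Siglecf were called higher in OCsEo against OCsCtr, Prg2 lower in OCsEoS against OCsCtr, and Alox15 and Prg2 lower in OCsEoS against OCsEo. Over all genes tested, 3.27%, 4.11% and 0.307% were called in these directions. Alox15, Siglecf and Ear1 had been named by the study from these same libraries, so the list is not independent of the data.

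The 9 genes fell into 4 sets. Il5 and Siglecf rose in cultures that had met eosinophils. Prg2 was already present in unstimulated cultures and fell in those given supernatant. Ccr3 was abundant in all libraries, and the remaining genes lay close to the floor. A gene was called when edgeR's adjusted p was under 0.05 and its log2 fold change over 0.5 in either direction. The filter on low counts passed 5 of the 9 genes (Il5, Siglecf, Ccr3, Prg2, Ear2) and removed 4 (Il5ra, Epx, Ear1, Ear6). In OCsEo against OCsCtr, 2 genes were called, both higher (Il5 and Siglecf), where 5.88% of 13681 genes tested were called in either direction and 3.27% were called higher. In OCsEoS against OCsCtr, 1 gene was called, lower (Prg2), where 7.73% of genes were called and 4.11% were called lower. In OCsEoS against OCsEo, 2 genes were called, both lower (Il5 and Prg2), where 0.38% of genes were called and 0.307% were called lower. Both comparisons with OCsCtr share its libraries, and the comparison of OCsEoS with OCsEo shares libraries with each of them. The study had named Il5, Siglecf and Ear1 from the OCsEo libraries, so the choice of these genes was not independent of the data.

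**Figure D1:**
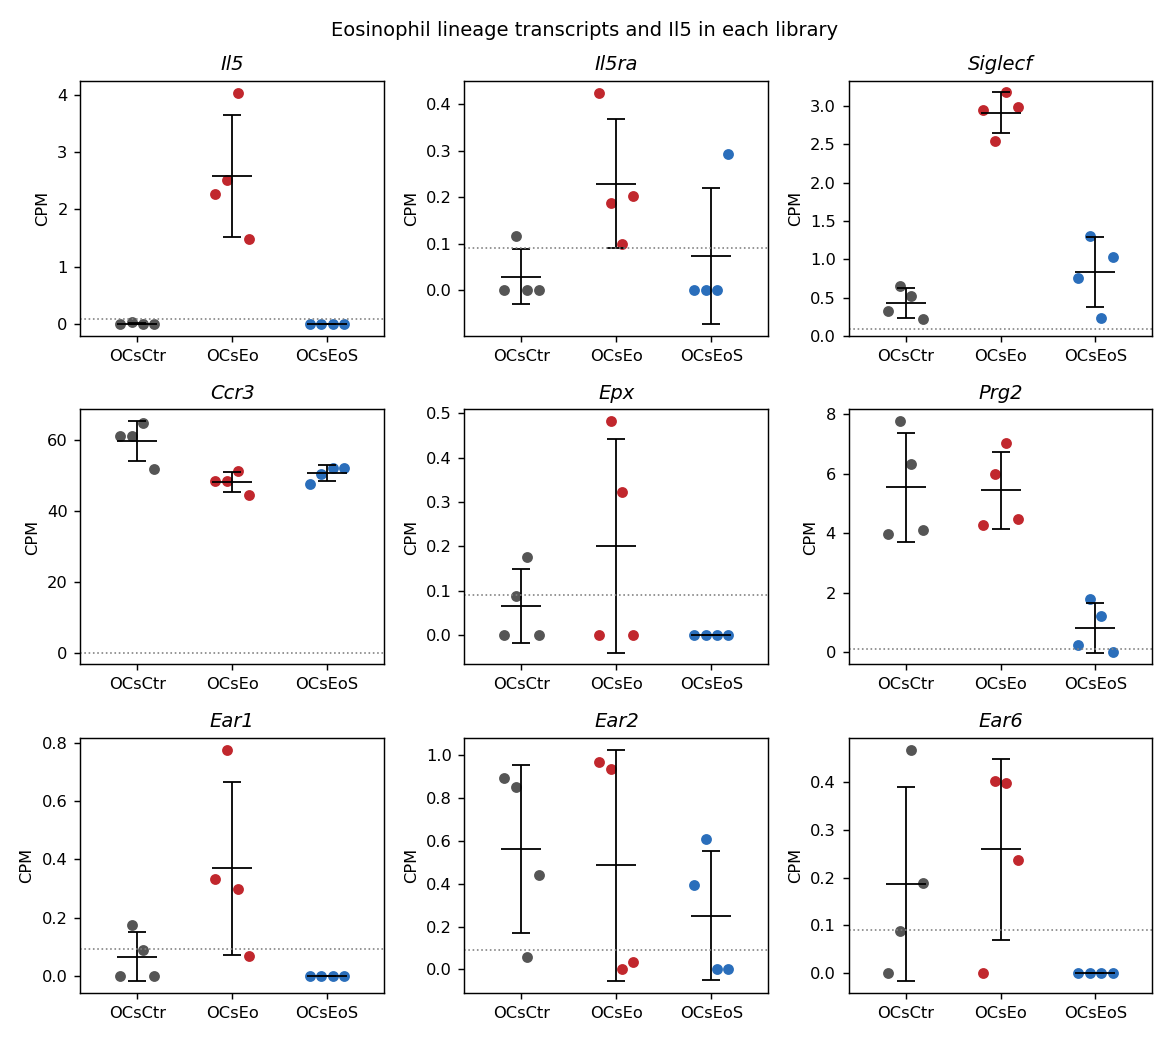
Each panel shows 1 gene, with a point for each of the 4 libraries of OCsCtr (grey), OCsEo (red) and OCsEoS (blue), the level in CPM on the vertical axis, the mean as a horizontal bar and the SD as error bars; the dotted line is the mean value of 3 counts. Il5 was above the line only in OCsEo, Siglecf was highest in OCsEo, Prg2 was lowest in OCsEoS, and Ccr3 lay between 44.7 and 65.05 CPM throughout.

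Il5 (ENSMUSG00000036117, chromosome 11, 53720794 to 53725106, plus strand of GRCm38) encodes the cytokine itself. It had 0, 1, 0 and 0 counts in OCsCtr libraries 1 to 4, 75, 94, 163 and 44 counts in OCsEo libraries 1 to 4, and 0 counts in all 4 OCsEoS libraries. The transcript was thus at or under the floor in all 8 libraries that had not met eosinophils, and well above it in all 4 that had. Its level in OCsEo was 2.58 ± 1.07 CPM (SD, n = 4), and the highest library had 2.71 times the CPM of the lowest. Il5 was called higher than in OCsCtr (edgeR, adjusted p = 1.81e-05), but the size of the difference is poorly set, since the ratio of 344 (counting interval 61.3 to 13612) rests on 1 count in OCsCtr library 2. Without this library OCsCtr was at 0, the call remained (edgeR, adjusted p = 1.70e-04), and the fitted log2 fold change, which depends on the prior count for such a gene, moved from 7.83 to 9.44. Il5 was also called higher in OCsEo than in the supernatant group, whose libraries were all at 0 (edgeR, adjusted p = 1.30e-04). With 3 counts set in place of each 0 in that group, the mean CPM in OCsEo was 27.9-fold higher. No fold is given for OCsEoS against OCsCtr, since both groups were at or under the floor.

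Whether the Il5 reads came from the transgene of the donor mice or from the endogenous gene cannot be told from counts per gene. T cells are another known source of Il5. Their 11 markers summed to 7.27 to 11.1 CPM in OCsCtr, 13.2 to 16.4 CPM in OCsEo and 11.8 to 13.1 CPM in OCsEoS. Il7r made up most of each sum, at a mean of 5.47 CPM in OCsCtr, 10.0 CPM in OCsEo and 8.23 CPM in OCsEoS. It rose with a call in both stimulated groups, where 3.27% (OCsEo) and 3.63% (OCsEoS) of all genes tested were called higher. The other 5 markers tested had no call. The log2 fold changes of these 5 in OCsEo against OCsCtr ran from -0.33 (Trac) to 1.55 (Cd4). In the OCsEo libraries Cd3d had 11, 34, 37 and 26 counts, Trac had 21, 52, 54 and 8, and Cd3e had 0, 0, 26 and 0, 3 chains of the T cell receptor complex named after their values were seen. Cd3d and Trac had counts in OCsCtr as well, where Il5 was at or under the floor, and the part of T cells in the Il5 counts was not tested.

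Il5ra (ENSMUSG00000005364, chromosome 6, 106710357 to 106749037, minus strand) encodes the specific chain of the IL-5 receptor and is the CD125 by which the eosinophils were sorted. It had 0, 4, 0 and 0 counts in OCsCtr, 14, 7, 4 and 6 in OCsEo and 0, 0, 0 and 10 in OCsEoS. Only the OCsEo group had counts in every library, all of them at 14 or below, and a library of each other group reached the range of OCsEo. The summed counts gave a ratio of 7.08 for OCsEo over OCsCtr (counting interval 2.50 to 27.6), but the groups overlapped and the exact permutation test of the mean CPM over the 70 splits of 4 against 4 did not pass (two-sided p = 0.0571, where 0.0286 is the smallest value it can give). The partner chain Csf2rb, in contrast, had 2360 to 4084 counts in every library.

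Around the ligand and its receptor, 24 of 27 genes of IL-5 signaling were tested, and 3 were called higher and none lower in OCsEo against OCsCtr, namely Il5 itself, Il3ra and Socs1, where 3.27% of all genes were called higher. Il3ra, the alpha chain of the IL-3 receptor that pairs with the same beta chain, rose from 11.8 ± 1.48 to 16.9 ± 1.12 CPM (SD, n = 4 each; log2 fold change 0.53, edgeR, adjusted p = 0.0136) and stood at 11.8 ± 2.38 CPM in OCsEoS. Socs1, an inhibitor of cytokine receptor signaling, was called higher in both stimulated groups, with log2 fold changes of 0.69 in OCsEo and 0.71 in OCsEoS (edgeR, adjusted p = 0.0429 and 0.0305). In OCsEoS against OCsCtr, Socs1 was the only gene of the 24 called, where 3.63% of all genes were called higher. The median log2 fold change of the list was -0.07 in OCsEo and -0.19 in OCsEoS against OCsCtr, beside -0.01 over all genes tested in each. The related cytokines Il3 and Csf2 had 0 counts in every library.

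Siglecf (ENSMUSG00000039013, chromosome 7, 43351341 to 43359531, plus strand) encodes the sialic acid-binding receptor used as the eosinophil surface marker, which alveolar macrophages also carry. It had 9, 22, 18 and 7 counts in OCsCtr, 97, 95, 128 and 88 in OCsEo and 21, 45, 8 and 35 in OCsEoS. All OCsEo libraries lay above all libraries of the other groups, as for Il5, where 6.6% of the 20203 genes with counts were separate and higher in OCsEo against OCsCtr, and every library of every group had counts above the floor. In CPM, OCsEo libraries varied by a factor of 1.25 between the highest and the lowest, less than the 2.71 of Il5. Siglecf rose from 0.428 ± 0.193 to 2.91 ± 0.264 CPM (SD, n = 4 each) in OCsEo against OCsCtr, with a log2 fold change of 2.76 (SE 0.48, edgeR, adjusted p = 5.62e-04). In OCsEoS it was 0.83 ± 0.456 CPM (SD, n = 4), which overlapped OCsCtr and did not pass the test (log2 fold change 0.94, SE 0.48, edgeR, adjusted p = 0.179). OCsEoS and OCsEo did not overlap for Siglecf (exact permutation test, two-sided p = 0.0286), where 1.83% of genes were separate and lower, although the test across genes did not call it (log2 fold change -1.82, SE 0.46, edgeR, adjusted p = 0.0827). Without the filter on low counts, where 0.337% of genes were called lower, it was called (edgeR, adjusted p = 0.0175), and by DESeq2 on all 12 libraries too (adjusted p = 0.00958).

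Of the 9 mouse Siglecs tested, Siglecf was the only one called higher in OCsEo. Siglec15, a receptor of osteoclasts, was called lower in both stimulated groups, at 56.1 ± 5.02 CPM in OCsCtr, 33.8 ± 5.18 CPM in OCsEo and 29.45 ± 6.14 CPM in OCsEoS (SD, n = 4 each; edgeR, adjusted p = 7.37e-04 and 5.38e-05). The other 7 Siglecs were not called in any comparison. Against OCsCtr, 3.27% of all genes tested were called higher in OCsEo. Those called lower were 2.61% in OCsEo and 4.11% in OCsEoS.

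Ccr3 (ENSMUSG00000035448, chromosome 9, 124021971 to 124031689, plus strand) encodes the receptor for eotaxins. It had 1719, 2080, 2229 and 1651 counts in OCsCtr, 1598, 1812, 2075 and 1318 in OCsEo and 1328, 1749, 1784 and 1784 in OCsEoS. It was the most abundant of the 9 genes in every library, including those of unstimulated cultures, which had met no added eosinophils. Its level was 59.9 ± 5.59 CPM in OCsCtr, 48.3 ± 2.78 CPM in OCsEo and 50.8 ± 2.19 CPM in OCsEoS (SD, n = 4 each). The log2 difference from OCsCtr was -0.29 (SE 0.08, edgeR, adjusted p = 0.0164) in OCsEo and -0.23 (SE 0.08, edgeR, adjusted p = 0.0442) in OCsEoS, both short of the fold change that a call requires. All OCsEo libraries lay below all OCsCtr libraries (exact permutation test, two-sided p = 0.0286), where 8.39% of genes were separate and lower, and with TMM scaling they overlapped (p = 0.0571 by the same test). Between OCsEoS and OCsEo the log2 difference was 0.06 (SE 0.08, edgeR, adjusted p = 0.837).

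Of the 8 CCR3 ligands and related chemokines listed, 5 were tested. Ccl11, which encodes eotaxin, had 0 counts in every library, and Ccl24, which encodes another eotaxin, had 46 to 118 counts and was not called. Ccl7, a chemokine that binds CCR3 among other receptors, was called higher in both groups, from 3.15 ± 0.721 CPM in OCsCtr to 7.58 ± 2.68 CPM in OCsEo and 12.9 ± 2.94 CPM in OCsEoS (SD, n = 4 each; edgeR, adjusted p = 9.34e-04 and 1.12e-05). It was the only gene of the 5 called, where 3.27% (OCsEo) and 3.63% (OCsEoS) of all genes tested were called higher.

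**Figure D2:**
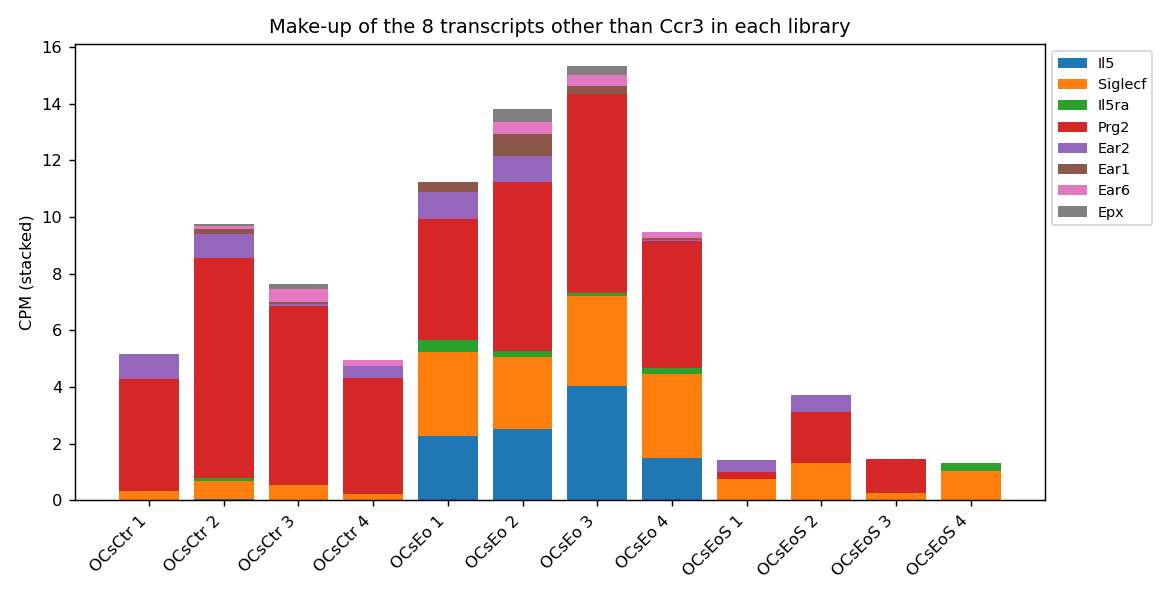
Stacked bars give the CPM of the 8 genes other than Ccr3 in each of the 12 libraries, with 1 color for each gene. Prg2 made up most of the sum in OCsCtr, Il5 and Siglecf were added to it in OCsEo, and the sum was lowest in OCsEoS, at 1.32 to 3.71 CPM.

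Prg2 (ENSMUSG00000027073, chromosome 2, 84980461 to 84983632, plus strand) encodes the major basic protein of the eosinophil granule. It had 111, 264, 217 and 130 counts in OCsCtr, 141, 223, 283 and 132 in OCsEo and 7, 62, 41 and 0 in OCsEoS. The OCsCtr and OCsEo libraries covered the same range, and all OCsEoS libraries lay below both, with 1 library at 0. Its level was 5.54 ± 1.84 CPM in OCsCtr, 5.44 ± 1.30 CPM in OCsEo and 0.812 ± 0.835 CPM in OCsEoS (SD, n = 4 each). Prg2 fell by 2.74 on the log2 scale in OCsEoS against OCsCtr (SE 0.56, edgeR, adjusted p = 0.00136), and fell by 2.73 against OCsEo (SE 0.56, edgeR, adjusted p = 0.0261). The difference between OCsEo and OCsCtr did not pass the test (log2 fold change -0.01, SE 0.49, edgeR, adjusted p = 0.994). The groups were separate in both comparisons with OCsEoS (exact permutation test, two-sided p = 0.0286 each), where 9.51% of genes were separate and lower against OCsCtr and 1.83% against OCsEo.

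The calls on Prg2 depended on the test. With DESeq2 on the 2 groups, the fall against OCsCtr kept its size (log2 fold change -2.76) at an adjusted p of 0.0507, and the fall against OCsEo had an adjusted p of 0.0883 with DESeq2 on all 12 libraries and of 0.309 on the 2 groups. The call against OCsEo was also lost in edgeR when OCsEo library 2 or 3, or OCsEoS library 1 or 3, was left out (adjusted p = 0.0563 to 0.0766), while the log2 fold change stayed between -3.46 and -2.31 whichever library was left out. In the OCsEoS libraries Prg2 ranged from 0 to 1.79 CPM. Reads per gene cannot tell fewer cells of a type from less RNA per cell, here and in all results below.

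The other granule genes were near the floor. Epx (ENSMUSG00000052234, chromosome 11, 87864000 to 87875536, minus strand), which encodes eosinophil peroxidase, had 0, 3, 6 and 0 counts in OCsCtr, 0, 18, 13 and 0 in OCsEo and 0 in all 4 OCsEoS libraries. Libraries at 0 were found in each group, and only OCsEo libraries 2 and 3 exceeded 6 counts. In OCsCtr too, only libraries 2 and 3 had Epx counts. Prg2 was highest in libraries 2 and 3 of every group, and Ear2 in libraries 1 and 2. Whether libraries of the same number shared a source was not tested, and the tests treat them as unpaired. The summed counts of Epx gave a ratio of 3.15 for OCsEo over OCsCtr (counting interval 1.46 to 7.52), while the exact permutation test over libraries gave a two-sided p of 0.429. The difference of Epx between OCsEo and OCsEoS did not pass either (exact permutation test, two-sided p = 0.429). With 3 counts set in place of each 0 in OCsEoS, Epx was 2.17-fold higher in OCsEo.

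Ear6 (ENSMUSG00000062148, chromosome 14, 51853699 to 51854643, plus strand) encodes a ribonuclease of the eosinophil-associated family. It had 0, 3, 16 and 6 counts in OCsCtr, 0, 15, 16 and 7 in OCsEo and 0 in all 4 OCsEoS libraries. OCsCtr and OCsEo overlapped over their whole range, and each had 1 library at 0. With 3 counts set in place of each 0 in OCsEoS, Ear6 was 2.01-fold lower there than in OCsCtr and 2.79-fold lower than in OCsEo. The exact permutation test gave a two-sided p of 0.143 for both comparisons. In edgeR without the filter on low counts, where 2.94% of 20203 genes were called lower, Ear6 was called lower in OCsEoS against OCsCtr (adjusted p = 0.0272).

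Prg3, which encodes a homolog of major basic protein, is not among the 9 genes but belongs to the same granule. It had 5, 25, 3 and 7 counts in OCsCtr, 2, 9, 24 and 0 in OCsEo and 0 in all 4 OCsEoS libraries. Its OCsCtr and OCsEo libraries overlapped.

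Ear1 (ENSMUSG00000072601, chromosome 14, 43818765 to 43875517, minus strand) had 0, 6, 3 and 0 counts in OCsCtr, 11, 29, 12 and 2 in OCsEo and 0 in all 4 OCsEoS libraries. Every OCsEo library had counts, the lowest of them under the floor, and OCsCtr and OCsEo overlapped (exact permutation test, two-sided p = 0.0857). The summed counts of 54 against 9 gave a ratio of 5.48 for OCsEo over OCsCtr (counting interval 2.69 to 12.6). With 3 counts set in place of each 0 in OCsEoS, the mean of Ear1 was 3.98-fold higher in OCsEo than in OCsEoS. These groups did not overlap, as 1.83% of genes did not in this direction, but OCsEo library 4, with 2 counts, was itself under the floor, so that this separation rests on a value below detection. In edgeR without the filter on low counts this difference was not called (adjusted p = 0.0741).

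Ear2 (ENSMUSG00000072596, chromosome 14, 44102654 to 44103534, plus strand) had 25, 29, 2 and 14 counts in OCsCtr, 32, 35, 0 and 1 in OCsEo and 11, 21, 0 and 0 in OCsEoS. Each group held libraries above 10 counts and libraries at or under the floor, so the 3 groups overlapped. Its level was 0.561 ± 0.393 CPM in OCsCtr, 0.486 ± 0.542 CPM in OCsEo and 0.251 ± 0.302 CPM in OCsEoS (SD, n = 4 each). No comparison passed the test (log2 fold changes -0.20, -1.14 and -0.94, SE 1.17 to 1.21, edgeR, adjusted p = 0.938, 0.561 and 0.818). The sequences printed above show how near Ear1 and Ear2 are. In OCsEo library 3 Ear1 had 12 counts and Ear2 had 0, whereas in OCsEo library 1 Ear1 had 11 and Ear2 had 32, and how the reads were split between them was not tested.

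Taking the 6 granule genes Epx, Prg2, Prg3, Ear1, Ear2 and Ear6 in each library, 3, 0, 0 and 2 of them were at 0 in the OCsCtr libraries, 2, 0, 1 and 2 in the OCsEo libraries, and 4, 4, 5 and 6 in the OCsEoS libraries. OCsEoS library 4 thus had no count for any of them, but it had 10 counts of Il5ra and 35 of Siglecf. Over the whole count table this library had the most genes at 0, with 33017 against 32078 to 32431 in the other OCsEoS libraries. It also had the fewest genes with 1 to 3 counts, at 453. Epx, Ear1, Ear6 and Prg3 were at 0 in all 4 OCsEoS libraries. With pure counting, a count of 0 in a library allows up to 3 counts, here 0.108 CPM or less. The spread here was wider: in OCsEoS, 25.7% of values were at 0 for genes with a mean of 5 to 10 counts. A count of 0 can therefore stand for a mean above 3 counts. Among the 2763 genes whose counts summed to 9 to 50 over OCsCtr, a range that holds these 4 genes and was chosen after their values were seen, 11.9% were at 0 in all OCsEoS libraries and 11.2% at 0 in all OCsEo libraries. Among the 977 genes with summed counts of 31 to 60 over OCsEo, 2.05% were at 0 in all OCsEoS libraries.

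Other members of these protein families were followed beside them. Of the 12 genes of major basic protein and the eosinophil-associated ribonucleases, 5 were tested, and Rnase4, a secreted ribonuclease outside the Ear group, was called higher in both stimulated groups, at 7.94 ± 2.33 CPM in OCsCtr, 13.6 ± 2.64 CPM in OCsEo and 17.7 ± 4.36 CPM in OCsEoS (SD, n = 4 each; edgeR, adjusted p = 0.0111 and 4.49e-04). Ear10 and Ear14 had 0 counts in every library. Of the heme peroxidases only 2 of 5 were tested, and Mpo, the peroxidase of neutrophil granules, had 716, 927, 568 and 895 counts in OCsCtr, 927, 1014, 1622 and 742 in OCsEo and 436, 797, 586 and 506 in OCsEoS. Mpo was called lower in OCsEoS against OCsEo (log2 fold change -0.79, edgeR, adjusted p = 0.0441) and in neither comparison with OCsCtr.

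Neutrophils store related granule proteins, and their markers differed between the groups as well. The 15 markers summed to 373 to 544 CPM in OCsCtr, 527 to 698.5 CPM in OCsEo and 423 to 495 CPM in OCsEoS, and none was at 0 in a whole group. Of the 15, Elane, Ctsg and Camp were called higher in OCsEo against OCsCtr, where 3.27% of all genes tested were called higher. None was called in OCsEoS against OCsCtr, where 7.73% were called. Ngp, Ltf and Mpo were called lower in OCsEoS against OCsEo, where 0.307% were called lower. The part of neutrophils in the results on Prg2, Epx and the Ear genes was not tested. The markers of basophils or mast cells (10 listed, 6 tested), B cells (8 listed, 6 tested) and erythroid cells (7 listed, 3 tested) held no called gene in any comparison. Of the erythroid genes removed by the filter, Hba-a2, an alpha globin gene, had 7, 6, 12 and 4 counts in OCsCtr, 0 in all OCsEo libraries and 0 to 2 in OCsEoS, so that OCsCtr lay apart above both. Of the genes with counts, 8.39% were separate and lower in OCsEo and 9.51% in OCsEoS against OCsCtr. The log2 fold changes of the erythroid genes tested, in OCsEo and OCsEoS against OCsCtr, were 0.08 and 0.71 (Hba-a1), 0.60 and 0.50 (Hbb-bs), and 0.39 and -0.32 (Hbb-bt). How reads were split among the globin genes was not tested.

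**Figure D3:**
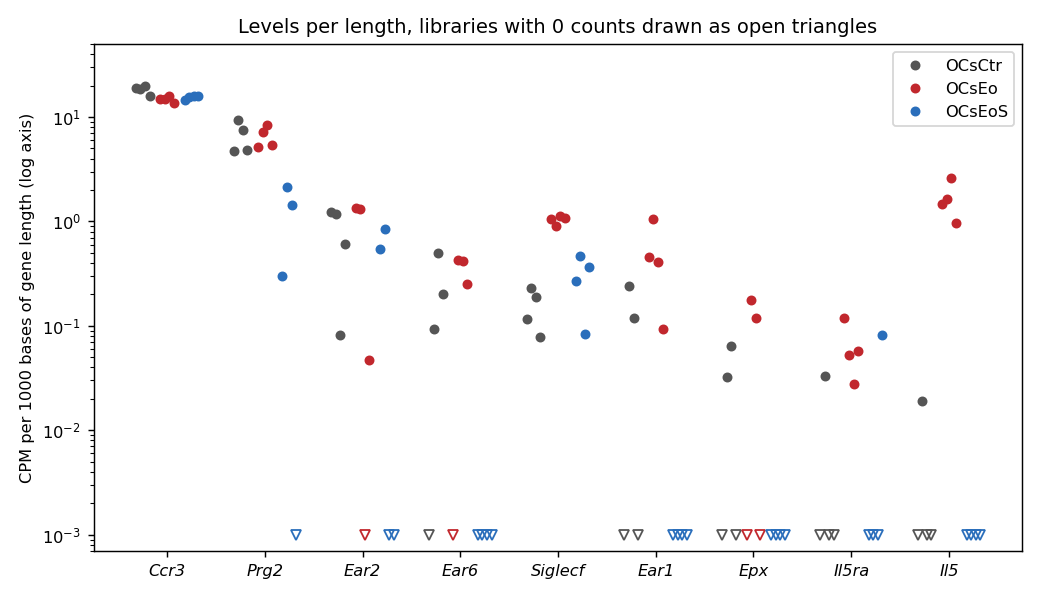
Points give the level of each gene in each library as CPM per 1000 bases of gene length, on a log axis, for OCsCtr (grey), OCsEo (red) and OCsEoS (blue), with genes ordered by their mean in OCsCtr and libraries with 0 counts drawn as open triangles at the bottom. Ccr3 and Prg2 led in OCsCtr, and Il5 moved from the last place in OCsCtr to place 3 in OCsEo.

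Levels were compared between genes as CPM per 1000 bases of gene length. In OCsCtr the order was Ccr3 (18.3 ± 1.71), Prg2 (6.61 ± 2.20), Ear2 (0.78 ± 0.546), Ear6 (0.197 ± 0.214), Siglecf (0.154 ± 0.0693), Ear1 (0.0904 ± 0.116), Epx (0.0241 ± 0.0306), Il5ra (0.00823 ± 0.0165) and Il5 (0.00478 ± 0.00957; SD, n = 4 each). Only Ccr3 and Prg2, and Prg2 and Ear2, were neighbours whose libraries did not overlap. In OCsEo the order was Ccr3 (14.8 ± 0.851), Prg2 (6.49 ± 1.55), Il5 (1.68 ± 0.695), Siglecf (1.04 ± 0.0946), Ear2 (0.676 ± 0.753), Ear1 (0.506 ± 0.406), Ear6 (0.274 ± 0.2), Epx (0.0735 ± 0.0882) and Il5ra (0.064 ± 0.0388). Here Ccr3, Prg2 and Il5 were apart from each other, and from Il5 downwards each gene overlapped the next. In OCsEoS, Ccr3 (15.5 ± 0.67) stood apart from Prg2 (0.969 ± 0.997), which overlapped Ear2 (0.349 ± 0.42), as Ear2 did Siglecf (0.297 ± 0.163). Siglecf stood above Il5ra (0.0205 ± 0.041), and Il5, Epx, Ear1 and Ear6 were at 0.

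A wider list of eosinophil-associated genes was followed as well. Of 28 such genes outside the 9, 23 were tested, and 12 were called higher and none lower in OCsEo against OCsCtr, 6 higher and none lower in OCsEoS against OCsCtr, and none higher and 2 lower in OCsEoS against OCsEo. Over all genes tested, 3.27% were called higher in OCsEo against OCsCtr, 3.63% higher in OCsEoS against OCsCtr and 0.307% lower in OCsEoS against OCsEo. The median log2 fold change of the list was 0.55, 0.33 and -0.24 in the 3 comparisons, beside medians over all genes tested of -0.01, -0.01 and 0.00151. The study had already named Alox15, Alox5ap and Retnlg from these libraries as eosinophil-related, and the list was chosen with earlier results known. Its counts are therefore descriptions and not a test independent of these data. Several genes of the list are also expressed by macrophages, and of 11 monocyte or macrophage markers Cd14 was called higher in both groups, with Adgre1 higher and Csf1r lower in OCsEoS. Against OCsCtr, 3.27% of all genes tested were called higher in OCsEo, and 3.63% higher and 4.11% lower in OCsEoS. Of 13 transcription factors of eosinophil development, all tested, only Id1, an inhibitor of helix-loop-helix factors, was called, higher in both groups (log2 fold changes 0.83 and 1.37, edgeR, adjusted p = 0.0489 and 0.00153). This count stands beside the same shares of 3.27% and 3.63% called higher over all genes tested.

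Alox15, an arachidonate lipoxygenase abundant in eosinophils, had the largest log2 fold change among the called genes of this list in OCsEo against OCsCtr. It had 3, 5, 10 and 21 counts in OCsCtr, 324, 427, 650 and 180 in OCsEo and 18, 39, 6 and 25 in OCsEoS. Its OCsEo libraries lay above all others, as for Il5 and Siglecf, with a log2 fold change of 5.17 over OCsCtr (edgeR, adjusted p = 8.42e-07) and -4.03 in OCsEoS against OCsEo (edgeR, adjusted p = 6.26e-05). Mmp25, a membrane-type metalloproteinase of granulocytes, had 20, 9, 15 and 13 counts in OCsCtr, 106, 87, 203 and 56 in OCsEo and 25, 47, 47 and 0 in OCsEoS, and was called higher in OCsEo against OCsCtr (log2 fold change 2.81, edgeR, adjusted p = 0.00599). Il1rl1, the receptor of IL-33, F5, a coagulation factor, and Cd24a, a surface glycoprotein, were also called higher in OCsEo against OCsCtr (log2 fold changes 1.66, 1.04 and 0.96, edgeR, adjusted p = 0.0313, 0.0226 and 6.61e-05). In OCsEoS against OCsCtr their log2 fold changes were 1.33, -0.04 and 0.49 (edgeR, adjusted p = 0.0705, 0.897 and 0.0122). None of these was a call, and Cd24a fell short only of the fold change required. Between OCsEoS and OCsEo, Il1rl1 did not pass the test (log2 fold change -0.32, edgeR, adjusted p = 0.519). Ccl6, a chemokine of myeloid cells, rose from 58.1 ± 10.3 CPM in OCsCtr to 125 ± 11.7 CPM in OCsEo and 84.1 ± 7.72 CPM in OCsEoS (SD, n = 4 each; edgeR, adjusted p = 1.34e-06 and 0.00142).

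Within the 4 OCsEo libraries, the counts of Alox15 for each count of Il5 were 4.32, 4.54, 3.99 and 4.09, a pair of genes chosen after their values were seen. The corresponding counts of Siglecf for each count of Il5 were 1.29, 1.01, 0.785 and 2.00. Alox15 and Il5 thus kept nearly the same ratio in each library, whereas the ratio of Siglecf to Il5 varied. That ratio was lowest in library 3, where Il5 was highest, and highest in library 4, where Il5, its denominator, was lowest. Siglecf itself had its highest count, 128, in library 3 and its lowest, 88, in library 4. These are descriptions over 4 libraries, in which both counts share their depth.

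**Figure D4:**
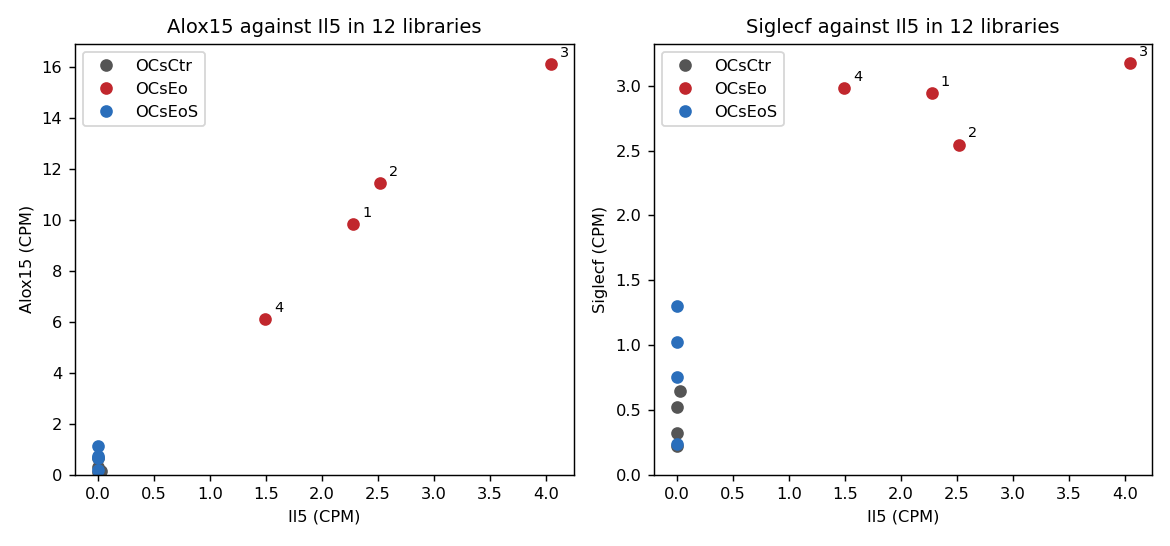
The left panel plots Alox15 and the right panel Siglecf against Il5, all in CPM, with a point for each of the 12 libraries in OCsCtr (grey), OCsEo (red, numbered by library) and OCsEoS (blue). In OCsEo, Alox15 was higher where Il5 was higher, while Siglecf stayed between 2.55 and 3.17 CPM.

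The genes whose log2 CPM followed each tested gene most closely over the 12 libraries are given as a description, by Pearson's r among 13680 other genes. They were Adra2a (0.95), Pglyrp1 (0.93) and Sepw1 (0.93) for Il5, Taldo1 (0.95), Snx20 (0.93) and Mlf2 (0.92) for Siglecf, mt-Nd3 (0.96), Nus1 (0.95) and Ubac1 (0.95) for Ccr3, Pink1 (0.95), Pisd (0.95) and Arpc2 (0.93) for Prg2, and Pik3r1 (0.92), Jund (0.91) and Hgs (0.91) for Ear2. None of the 9 genes was among the nearest 3 of another, and group differences enter each of these values.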

How the data were processed

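The authors cleaned paired-end reads with fastp, aligned them with HISAT2 2.0.5 to GRCm38/mm10 and counted reads per gene with featureCounts; the deposited values are raw counts without normalization. The annotation release and the strand setting are not given in the sources used here. Counts were used as deposited, with counts per 1000000 (CPM) on the total counts of each library (27837530 to 40327869). Genes were filtered with edgeR 4.0.16 (filterByExpr, minimum count 10), scaled by TMM (factors 0.968 to 1.03) and tested in 1 quasi-likelihood fit of all 12 libraries (R 4.3.3), with p-values adjusted by Benjamini-Hochberg over 13681 genes. A call needed an adjusted p under 0.05 and a log2 fold change over 0.5. Each of the 9 genes was also compared by exact two-sided permutation tests of the mean CPM over 70 splits, without adjustment over the 27 tests. Groups were separate when no library of 1 lay within the range of the other.

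Transcripts and overlaps came from GENCODE vM21 of GRCm38, aligned with Biopython 1.88. Alternatives were DESeq2 1.42.0 on all 12 libraries or on the 2 groups, DESeq2's size factors, edgeR on the 2 groups, no filter on low counts, no threshold on the fold change, a replicate block, CPM on TMM or DESeq2 factors, thinned counts and each library left out. The edgeR fit and the permutation test were run on simulated data. The genes changed in the simulated counts lay well above the floor, so this check does not cover genes near it. The genes named from the lists are those called in a comparison, or removed by the filter with separate groups and at least 10 counts in 1 library, up to 6 for each list by fold change, besides the 9 genes and the 3 nearest genes of each. The genes and lists were chosen with earlier results of these data known. The study's methods call the 4 libraries of a group biological replicates, and the labels do not tie them to animals or cultures, so p-values measure the spread between these samples.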

Additional observations from a re-analysis of the deposited data

Results flagged for a closer look

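Libraries far from the other 3 of their group were looked for in 23 groups of a gene, and 3 were found. The rate of about 1 in 20 that chance gives does not apply to these, since with 3 libraries at 0 any count in the other stands apart by construction. Il5 in OCsCtr library 2 stood at 0.0294 CPM (1 count) with the other OCsCtr libraries at 0. Il5ra in OCsCtr library 2 stood at 0.118 CPM (4 counts) with the others at 0. Il5ra in OCsEoS library 4 stood at 0.293 CPM (10 counts) with the others at 0. All 3 rest on 10 counts or fewer.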

How the results depend on the processing

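Il5 and Siglecf were called higher in OCsEo against OCsCtr under every alternative run. The members called in OCsEoS against OCsCtr, 1 in the report, were 2 with no threshold on the fold change (Ccr3 and Prg2) and 2 without the filter on low counts (Prg2 and Ear6), 0 with DESeq2 on the 2 groups, and 1 to 2 when each library was left out (Ear6 was added without OCsCtr library 1 and Siglecf without OCsEoS library 3, log2 fold change 1.25, edgeR, adjusted p = 0.0498). Members with separate groups in that comparison, 1 in the report, were 2 with thinned counts and 1 to 2 when each library was left out. Members called in OCsEoS against OCsEo, 2 in the report, were 3 without the filter on low counts (Il5, Prg2 and Siglecf), 2 with DESeq2 on all 12 libraries (Il5 and Siglecf), 3 with DESeq2 on the 2 groups (Il5, Siglecf and Ear1), 1 with edgeR on the 2 groups (the call on Prg2 lost, adjusted p = 0.06) and 1 to 2 when each library was left out (the call on Prg2 lost without OCsEo library 2, OCsEo library 3, OCsEoS library 1 or OCsEoS library 3, edgeR, adjusted p = 0.0675, 0.0563, 0.0766 and 0.0647, with its log2 fold change at -3.46 to -2.31). Genes called over all genes in OCsEoS against OCsEo numbered 52, and 100 without the filter on low counts. The cause of these changes was not tested. In OCsEo against OCsCtr the small difference of Prg2 changed sign under the replicate block (log2 fold change 0.049) and ranged from -0.17 to 0.21 when each library was left out, and that of Ear2 from -0.77 to 0.21. The replicate block moved Ear2 from -0.20 to -1.20 in OCsEo and from -1.14 to -2.13 in OCsEoS against OCsCtr, both without a call. The labels give no link other than the number between libraries of the same number. The correlations of their deviations were -0.0435 to 0.0944, and 3 of 4 correlated best with their own number in each comparison. Whether such libraries shared a source was not tested, and the main fit and the permutation tests treat them as unpaired. The replicate block changed no call among the 5 tested genes. Counts near the floor limit Il5ra, Epx, Ear1 and Ear6, for which a difference could go undetected at this depth.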
